A study of Drosophila melanogaster with 3 samples.

Results

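The 500 strongest Blimp-1 binding peaks were taken from the 9515 peaks that passed the authors' threshold on the irreproducible discovery rate (IDR) between replicates. They were chosen by the signal value of each peak in that deposited list, and were set against the next 500 peaks of the same list. The data come from chromatin immunoprecipitation followed by sequencing (ChIP-seq) of whole Drosophila melanogaster embryos, 10 to 12 h old by the name of the source material. All samples belong to 1 group: a transgenic line with stable expression of Blimp-1 fused at its C terminus to green fluorescent protein (GFP), precipitated with an antibody against GFP. That antibody is the one in the sample description, while the antibody label names Blimp-1. There were 3 biological replicates, per the labels, and no untagged or mutant group. The labels do not say whether the replicates came from separate embryo collections, and each was called against the same control alignment. A peak is a region of the genome in which precipitated DNA was enriched, and its summit is the position of highest enrichment. Whole embryos hold many tissues, so a peak does not show in which cells the protein was bound.

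Blimp-1 is the fly homologue of PRDM1, a zinc finger transcription factor known mainly as a repressor. In flies it is induced by the steroid hormone ecdysone and is known to repress the nuclear receptor gene ftz-f1, so that ftz-f1 appears only after Blimp-1 protein has decayed. In the embryo it is known to act in the epidermis and the trachea, where its loss disturbs the cuticle. Ecdysone acts through a receptor of EcR and Ultraspiracle, which switches on early and early-late genes such as Eip75B and Hr4, and these control later genes of the cascade.

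The known recognition sequence of Blimp-1 and its mammalian homologue is AGTGAAAG or AGCGAAAG on either strand, called the Blimp-1 site below. The 5 strongest peaks outside untranslated regions that held it within 50 bp of the summit are shown because they display both words and both strands. Each line gives the gene with the nearest transcription start site (TSS), the rank of the peak and the 101 bases centred on the summit, in the dm6 build, 5′ to 3′. Capitals mark the site.
Eip75B (rank 5, chr3L:17937460-17937560, + strand): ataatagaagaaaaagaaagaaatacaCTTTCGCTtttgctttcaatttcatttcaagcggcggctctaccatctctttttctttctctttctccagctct
CG11537 (rank 7, chr3L:3141514-3141614, + strand): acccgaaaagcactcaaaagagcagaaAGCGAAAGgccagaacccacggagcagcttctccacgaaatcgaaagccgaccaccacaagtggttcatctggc
ftz-f1 (rank 12, chr3L:18771685-18771785, + strand): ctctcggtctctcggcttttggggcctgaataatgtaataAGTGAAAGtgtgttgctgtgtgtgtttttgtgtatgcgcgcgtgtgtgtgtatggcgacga
CG9119 (rank 27, chr3L:1205103-1205203, + strand): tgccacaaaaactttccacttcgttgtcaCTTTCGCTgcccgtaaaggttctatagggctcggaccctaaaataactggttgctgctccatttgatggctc
CG10597 (rank 35, chrX:17229659-17229759, + strand): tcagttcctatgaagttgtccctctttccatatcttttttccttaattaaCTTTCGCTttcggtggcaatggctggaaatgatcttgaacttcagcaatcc

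Of the 5 sequences, 4 carried AGCGAAAG and that of ftz-f1 carried AGTGAAAG. CTTTCGCT is AGCGAAAG read on the other strand. Counted along the + strand from the summit, the site centre lay at -19 bp in the Eip75B and CG11537 windows, at -17 bp in that of CG9119 and at -6 bp in that of ftz-f1. It lay at 4 bp in the CG10597 window. The window of CG10597 also held GAAAGT immediately repeated, with at most 1 mismatch. The CG9119 window also held GAAAGTGA.

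The 3 strongest peaks outside untranslated regions and without the site are shown beside them, because the peak of highest signal is one of them. Capitals mark GAAAGTGA, a word that shares AGTGA with AGTGAAAG and GAAAG with both words of the site.
mol (rank 1, chr2L:14995717-14995817, + strand): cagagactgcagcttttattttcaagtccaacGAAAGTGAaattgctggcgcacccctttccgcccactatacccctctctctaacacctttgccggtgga
Kdm2 (rank 3, chr3R:9057592-9057692, + strand): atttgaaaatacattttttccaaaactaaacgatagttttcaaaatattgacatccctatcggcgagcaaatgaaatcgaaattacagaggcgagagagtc
Eip75B (rank 4, chr3L:17968617-17968717, + strand): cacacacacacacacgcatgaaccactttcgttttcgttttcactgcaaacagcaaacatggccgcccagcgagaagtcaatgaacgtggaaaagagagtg

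The mol window held GAAAGTGA and the repeated GAAAGT form. The windows of Kdm2 and Eip75B at rank 4 held none of these words, which says only that the letters were not in this window.

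The strength of the 500 peaks spanned a wide range. Their signal, a deposited value of undefined scale, ran from 2145.57 to 25918.3 with a median of 3149.35. In the next 500 it ran from 1437.08 to 2145.27 with a median of 1713.53. The median width was 667.5 bp in the 500 strongest and 496.5 bp in the next 500. The boundary falls on no gap. Just inside it, the last 5 members had signals of 2150.61 at Smg5, 2148.18 at CG6739, 2147.72 at prage, 2147.42 at Cda4 and 2145.57 at CG31612. Just outside it, the first 5 of the next 500 had 2145.27 at dpy, 2139.65 at raw, 2139.1 at l(2)k01209, 2138.87 at shn and 2138.36 at CG14968. Smg5 is a factor of nonsense-mediated mRNA decay, Cda4 a chitin deacetylase-like gene, and dpy encodes a giant protein of the apical matrix.

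Signals chose the 500 members, and the signal was computed on the replicates together, so the ranks in each replicate are a description and not an independent check. Of the 500 strongest peaks, 498 (99.6%) had a summit within 100 bp in the peak list of every replicate. Of the next 500, 493 (98.6%) had one. The 2 exceptions were not matched in replicate 1. They were the promoter peak of Sesn at rank 390, which had ranks 393 and 274 in replicates 2 and 3, and an intron peak whose nearest TSS is that of CG10283 at rank 395, which had rank 310 in both. Within ranks 1 to 500 of a replicate were 444 members in replicate 1, 463 in replicate 2 and 445 in replicate 3. All 3 replicates placed the same 380 members there. Across members, Spearman's rho between ranks was 0.78 for replicates 1 and 2 (498 peaks), 0.68 for replicates 1 and 3 (498 peaks) and 0.92 for replicates 2 and 3 (500 peaks). Across the next 500 it was 0.19 (493 peaks), -0.10 (493 peaks) and 0.63 (498 peaks) for the same pairs. The next 500 span a narrower range of the signal that chose them, so their rho values cannot be compared directly with those of the members. Within each set, replicate 1 stood farther from the other replicates than they did from each other. These points share 1 control alignment.

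**Figure D1:**
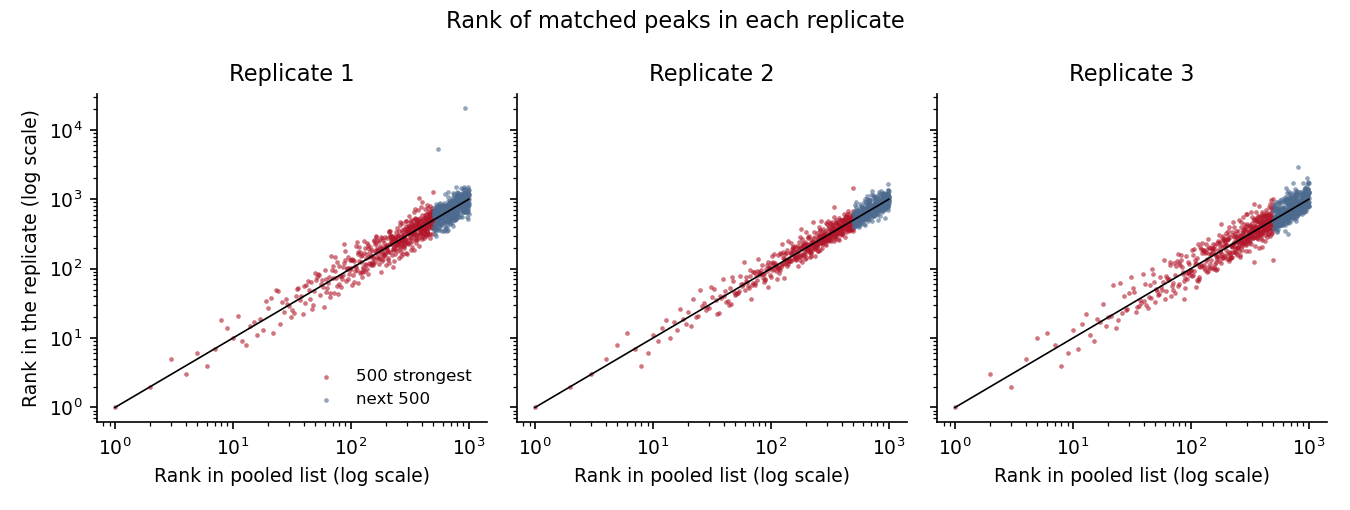
Rank of each peak in replicates 1, 2 and 3 (vertical axes, log scale) against its rank in the list made on all replicates (horizontal axes, log scale), for the 500 strongest and the next 500 peaks. The line marks equal ranks. Points of replicate 2 lie closest to the line, and the Smg5 peak, among the last of the 500, lies far below it in replicate 3, at rank 133.

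The members disagreed between replicates by a median factor of 1.62 between their highest and lowest rank, against 1.48 in the next 500. The same shift in rank gives a larger factor at small ranks, so these medians are not directly comparable. The 5 members with the largest factor were Smg5, CG11309, DUBAI, Piezo and wake. The Smg5 peak had ranks 1263, 1449 and 133 in replicates 1, 2 and 3, a factor of 10.9. Replicate 3 alone placed it within the first 500. The promoter peak of CG11309 had ranks 229, 65 and 36. The peak at DUBAI, a deubiquitinase gene, had ranks 649, 761 and 126, so 2 of the 3 replicates placed it outside the first 500. The peak at Piezo, which encodes a mechanically gated ion channel, had ranks 1039, 256 and 199. The wake peak, at a gene known for the timing of sleep, went the other way with ranks 89, 373 and 438, and its window held AGCGAAAG.

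The peak of highest signal, 25918.3, lay in an intron of mol, 1792 bp downstream of a TSS (summit chr2L:14995767), and had rank 1 in each of the 3 replicates. mol encodes a maturation factor of the dual oxidase, an enzyme that makes hydrogen peroxide. The second, with signal 16283.3, lay 6 bp from the TSS of the glutathione S-transferase gene GstE13, at ranks 2, 2 and 3. The third lay in an intron of the histone demethylase gene Kdm2, at ranks 5, 3 and 2 and with signal 15191.5. Of the 20 strongest peaks, 10 lay in introns, 7 at promoters and 3 between genes, and 3 held the Blimp-1 site. Every one of the 20 was within the first 34 ranks of replicate 1, the first 26 of replicate 2 and the first 31 of replicate 3.

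Several of the genes nearest to these 20 peaks belong to the hormone response. Eip75B, an early ecdysone-induced nuclear receptor, had ranks 4 and 5. The rank 4 peak lay in its intron, at ranks 3, 5 and 5 in the replicates. The rank 5 peak lay 24304 bp downstream of the nearest coding TSS, in an intron of the noncoding gene lncRNA:CR43174, at ranks 6, 8 and 10. The intergenic peak at rank 6, with signal 12939.7, lay 3033 bp upstream of Blimp-1 itself, at ranks 4, 12 and 12. The ftz-f1 peak at rank 12 lay in an intron, 5991 bp upstream of the nearest TSS, at ranks 9, 14 and 16. Rank 14 lay 1629 bp upstream of Hr38, a nuclear receptor gene, and rank 16 in an intron of tai, which encodes a coactivator of the ecdysone receptor.

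The other genes among the first 20 have varied roles. CG11537 (rank 7), CG31821 (rank 8), CG45064 (rank 11), CG34342 (rank 15) and CG9737 (rank 19) are named only by their identifiers. The peak assigned to CG31821 lay in an intron of beat-Ib and that of CG45064 within Flo2, the flotillin 2 gene. Mgat2 (rank 9) encodes an enzyme of N-glycan processing. verm (rank 10) encodes a chitin deacetylase-like protein of the tracheal lumen. pum (rank 13) encodes a translational repressor that binds RNA, and its peak lay in an intron 11129 bp from the nearest TSS. cu (rank 17) belongs to the nocturnin family of deadenylases, and its window had a GC content of 15.8%. Mhcl (rank 18) encodes a myosin-like protein and Tsp97E (rank 20) a tetraspanin.

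The 500 members lay nearest to 431 protein-coding genes, and the next 500 to 444. They had 61 genes in common, 14.2% of the genes nearest to the 500 strongest and 13.7% of those nearest to the next 500. Of the 431 genes, 390 had 1 of the 500 summits nearest to them, 31 had 2, 6 had 3 and 4 had more. Those 4 were Eip75B with 10, ftz-f1 with 7, slbo with 7 and Hr4 with 6. In the next 500, Eip75B had 4, Hr4 had 2 and ftz-f1 and slbo had 0. The median length of the genes was 7219 bp for the 500 strongest and 6248.5 bp for the next 500, against 2166 bp for all 13945 protein-coding genes. The part of gene length in these counts was not tested.

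**Figure D2:**
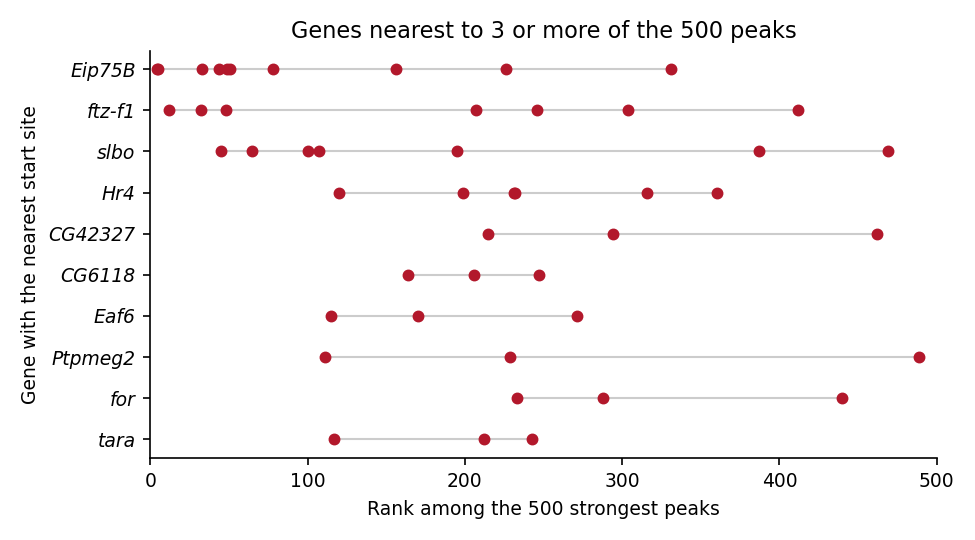
Rank of every member peak (horizontal axis) for the 10 genes with the nearest TSS to 3 or more of the 500 summits (vertical axis). Each point is 1 peak and the grey line joins the strongest and the weakest of a gene. Eip75B has 7 of its 10 points within the first 100 ranks.

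Eip75B spans 113744 bp, and 8 of its 10 summits lay inside the gene. Their ranks were 4, 5, 33, 44, 49, 51, 78, 156, 226 and 331, and 4 windows held the Blimp-1 site. None lay at a promoter. The peaks at ranks 226 and 78 ranked higher in replicate 1, at 107 and 43, than in replicate 3, at 471 and 160. The 7 summits of ftz-f1 all lay inside its 50703 bp, with 2 at promoters and 2 with the site. Its strongest promoter peak, at rank 32, was centred 146 bp upstream of a TSS and had ranks 25, 39 and 52 in the replicates. Its peak at rank 48 lay in a 5′ UTR, held AGCGAAAG and had ranks 30, 66 and 84. The peak at rank 64 also lay inside ftz-f1, but its nearest coding TSS was that of Atg3. The 6 summits of Hr4, another nuclear receptor of the ecdysone cascade, all lay inside its 66017 bp with ranks between 120 and 360. One of them held the site, at rank 360. The peak at rank 120 lay 201 bp upstream of an Hr4 TSS.

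The 7 summits assigned to slbo, which encodes a C/EBP transcription factor, lay outside that 2786 bp gene, and none held the site. With 1 summit assigned to betaTub60D they formed the run with the most summits, 8 within 15850 bp of chromosome arm 2R. The 8 ranks ran from 45 to 469. Summits no farther than 10 kb from the next formed 52 runs of 2 or more, which held 131 of the 500. Other runs of 4 or more were 6 summits inside ftz-f1, 6 within Eip75B, 5 between Eaf6 and Blimp-1, and 4 at CG6118 and Act88F. The ftz-f1 run includes the rank 64 summit that was assigned to Atg3. Of the next 500, 92 had another summit of the same 500 within 10 kb. The 2 Blimp-1 peaks of the run had ranks 6 and 47. The 3 summits nearest to Eaf6 had ranks 115, 170 and 271, and the first held AGCGAAAG.

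Genes were also grouped by function, through summits within 1 kb of a TSS. Of all 13945 protein-coding genes, 333 (2.39%) had such a summit among the 500 strongest and 322 (2.31%) among the next 500. The ecdysone response list held 28 genes, of which 5 (17.9%) had one among the 500 strongest and 1 (3.57%) among the next 500. The 5 were ftz-f1 (rank 32), Hr38 (rank 105), Hr4 (rank 120), vri (rank 140), which encodes a bZIP factor, and E23 (rank 161), an ABC transporter gene. Counted by nearest TSS, however distant, 11 of the 28 genes had a member peak, and 6 had 1 of the next 500. By that rule 431 of all protein-coding genes (3.09%) had a member and 444 (3.18%) had 1 of the next 500, and the other counts by nearest TSS are to be read against these shares. The 11 were EcR, Eip75B, ftz-f1, Hr3, Hr4, Hr38, Blimp-1, E23, ImpL2, tai and vri. The strongest EcR peak, at rank 25, lay in an intron 12778 bp from the nearest TSS and had ranks 16, 50 and 62 in the replicates. The nuclear receptor list held 21 genes, 3 of them (14.3%) with a promoter-proximal member and 1 (4.76%) with 1 of the next 500. Those 3 are also in the ecdysone list. Earlier results of these data had already shown the ecdysone response list among those with many peaks, so its count is not independent support.

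Over all protein-coding genes 2.39% had a member within 1 kb of a TSS, against 2.31% in the next 500. The epidermal lists had between 0 and 2 genes each with such a member. In chitin and cuticle assembly 2 of 30 genes (6.67%) had one, against 0 in the next 500. They were knk (rank 80), which protects and organises chitin, and the chitin synthase gene kkv (rank 370). By nearest TSS the list had 6 members, against 3. In the apical matrix and denticle list 2 of 21 genes (9.52%) had one, neo (rank 329) and nyo (rank 458), both genes of zona pellucida domain proteins, against 1 in the next 500. By nearest TSS that list had 6 members, neo, nyo, mey, dyl, f and m, against 4. The tanning and wound list had kkv alone within 1 kb (1 of 19, 5.26%, against 0). By nearest TSS that list had 2 members, kkv and mol, against 2. Of 114 cuticle structural protein genes 0 had one, and the next 500 had 0 too. By nearest TSS they had 2 members, Cpr78Cc and TwdlE, against 0. The tracheal list had 0 of 30, against 2 in the next 500. By nearest TSS it had 4 members, bnl, vvl, pnt and Gasp, against 5.

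The EGF receptor, Wnt, BMP and JNK pathway lists had 1 gene each with a member within 1 kb of a TSS. The EGF receptor pathway had drk (rank 148), an adaptor gene (1 of 22, against 2). The Wnt pathway had Axn (rank 9), the axin gene (1 of 25, against 1), whose TSS lies within 1 kb of the peak assigned to Mgat2. The BMP pathway had the Smad gene Mad (rank 371; 1 of 20, against 0) and the JNK pathway the kinase gene Mkk4 (rank 273; 1 of 12, against 1). At the Mkk4 peak, SLIRP2 had the closer TSS. Notch pathway genes had 0 of 23, against 3 in the next 500. Hedgehog (15 genes), Hippo (16 genes) and TALE and Iroquois homeobox (7 genes) had 0 in both sets. Hox and segmentation genes had 0 of 29, against 1.

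Lists for other cell types and for broadly expressed genes gave the following counts. Neuronal differentiation had elav (rank 305), which encodes a neuronal RNA-binding protein (1 of 22, against 0). Muscle had 0 of 28, against 2, and septate junctions 0 of 23, against 1. Hemocyte and fat body (22 genes), gut and endoderm (17 genes), germ line (15 genes), proteasome (48 genes) and histone demethylases (10 genes) had 0 in both sets. By nearest TSS the histone demethylases had Kdm2 alone, against 1, and the proteasome list 0, against 1. Ribosomal protein genes had 2 of 89 (2.25%), against 3. The stronger was at RpS28a (rank 9), where another gene had the closer TSS. Glutathione S-transferases had GstE13 (1 of 36, against 0). Ecdysone synthesis had the cytochrome P450 gene Cyp6u1 (rank 139; 1 of 17, against 0), where Ufsp1 had the closer TSS. By nearest TSS that list had phtm alone, against 0. The phtm peak, at rank 84, lay 10200 bp upstream and held the Blimp-1 site.

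Another 4 groups were written down after the list of nearest genes had been seen, so their counts describe and test nothing. Of 31 Polycomb and Trithorax group genes, which keep genes repressed or active, 4 (12.9%) had a member within 1 kb of a TSS, against 2 (6.45%) in the next 500. They were ph-p (rank 86), ph-d (rank 480), Spps (rank 259) and brm (rank 439), where Arl1 had a closer TSS than brm. By nearest TSS there were 7, with Psc, trx, osa and Trl besides ph-p, ph-d and Spps, against 2. Of 32 insulin and TOR pathway genes 3 had one within 1 kb, REPTOR (rank 347), Lamtor3 (rank 385) and Sesn (rank 390), against 1. By nearest TSS there were 8, among them foxo, Thor, Ilp8 and ImpL2, against 2. Of 25 Osiris genes, an insect gene family, 3 (12%) had one, Osi17 (rank 130), Osi2 (rank 438) and Osi5 (rank 464), against 0. By nearest TSS there were 5 Osiris genes, against 3. Of 18 Toll pathway genes 1 had one, Toll-7 (rank 478), against 1. By nearest TSS the Toll pathway had 5, against 3.

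No difference in location between the 500 strongest and the next 500 peaks passed the test. A summit within 500 bp of any annotated TSS was called a promoter summit. Promoters held 223 of the 500 strongest summits (44.6%, 95% Wilson interval 40.3 to 49.0), against 224 of the next 500 (44.8%, 40.5 to 49.2). The odds ratio was 0.992 (Fisher's exact test, two-sided, adjusted p = 1). Introns held 202 against 205 and intergenic sequence 62 against 58, each with adjusted p = 1 in the same exact test. Of the 7 classes, 0 differed by that test, with or without adjustment. The promoter share over all 9515 peaks was 31.4%. With the 1000 strongest set against the next 1000, promoters were the more frequent in the stronger peaks (odds ratio 1.40, adjusted p = 0.00188 by the same exact test) and intergenic summits the less frequent (odds ratio 0.705, adjusted p = 0.0292 by the same exact test). In each replicate's own ranking the promoter share was 44.9% ± 3.81 for ranks 1 to 500 and 44.9% ± 0.757 for ranks 501 to 1000 (SD, n = 3). Of the promoter summits 153 lay at the promoter of 1 gene and 70 at those of 2 or more, against 163 and 61 in the next 500. In 20 cases, against 17, all of these genes were noncoding. Coding exons outside promoters held 0 of the 500 summits, which allows a share of up to 0.6% by the limit of 3 counts and of up to 0.762% by the 95% Wilson interval, against 2 of the next 500.

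The median distance to the nearest TSS of any gene, coding or noncoding, was 690.5 bp in the 500 strongest and 659.5 bp in the next 500. The longest was 34818 bp, at a peak in osp whose nearest TSS is that of Adhr. By chromosome arm 84 members lay on 2L, 88 on 2R, 115 on 3L, 137 on 3R and 76 on X, and 0 on chromosome 4. In the next 500 the counts were 90, 86, 120, 110 and 92, with 2 on chromosome 4.

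The Blimp-1 site was more frequent at the 500 strongest summits. It lay within 50 bp of 77 of them (15.4%, 95% Wilson interval 12.5 to 18.8), against 44 of the next 500 (8.80%, 6.62 to 11.6). The odds ratio was 1.89 (Fisher's exact test, two-sided, p = 0.00182). Over all 9515 peaks the share was 6.31%. The site lay in 21 windows of ranks 1 to 100 and in 23 of ranks 101 to 200. In the later bands of 100 members it lay in 12, 12 and 9, against 5 to 12 per band in the next 500. In each replicate's own ranking the share was 14.9% ± 2.05 for ranks 1 to 500 and 7.53% ± 0.503 for ranks 501 to 1000 (SD, n = 3). The single values for ranks 1 to 500 were 17.2%, 14.4% and 13.2% in replicates 1, 2 and 3, all above the 8%, 7.60% and 7% for ranks 501 to 1000. Peaks are not independent replicates, and the intervals reflect counting error alone.

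The site was close to the summit. An equally wide flank window, centred 500 bp to the right of the summit, held it at 8 of the 500 strongest peaks (1.60%), so that the summit-to-flank ratio was 9.63 (exact McNemar test, two-sided, p = 2.91e-16). At the next 500 the flank held it at 7 (1.40%), a ratio of 6.29 (p = 5.73e-08 in the same exact test). The 85 sites within 50 bp of the 500 strongest summits had a median distance of 18 bp from the summit, and the 50 sites of the next 500 one of 19.5 bp. Even so, 423 of the 500 strongest windows did not hold the exact site. GAAAGTGA lay in 75 windows, against 47, and the repeated GAAAGT form in 65, against 38. Any of the 3 forms lay in 142 windows (28.4%), against 83 (16.6%).

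**Figure D3:**
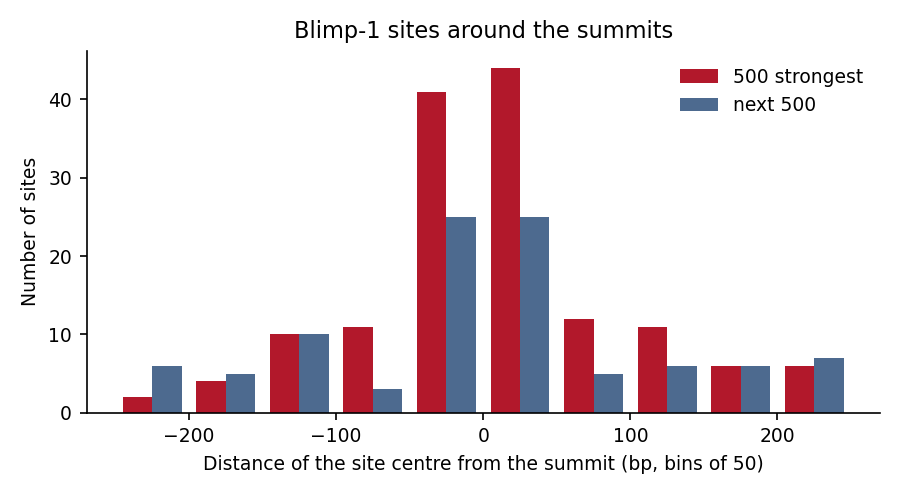
Number of Blimp-1 sites (vertical axis) by the distance of their centre from the summit in bins of 50 bp (horizontal axis), for the 500 strongest and the next 500 peaks. Both sets pile up in the 2 bins next to the summit, and the 500 strongest have more sites there.

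The excess was seen at promoters and elsewhere, with different outcomes of the test. At promoters 27 of 223 windows of the 500 strongest held the site (12.1%), against 15 of 224 of the next 500 (6.70%), an odds ratio of 1.92 that missed the threshold (Fisher's exact p = 0.0532). It passed when peaks were ranked without replicate 1 (odds ratio 2.06, p = 0.0445 in the same exact test) or without replicate 3 (2.11, p = 0.0326). At other summits it was 50 of 277 (18.1%), against 29 of 276 (10.5%), an odds ratio of 1.88 (Fisher's exact p = 0.0147). Both odds ratios were close to the value over all peaks, and their difference was not tested. With promoters drawn at 1000 bp the outcomes changed sides, at 44 of 293 against 17 of 279 (odds ratio 2.72, Fisher's exact p = 0.000620) and 33 of 207 against 27 of 221 (1.36, p = 0.330).

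**Figure D4:**
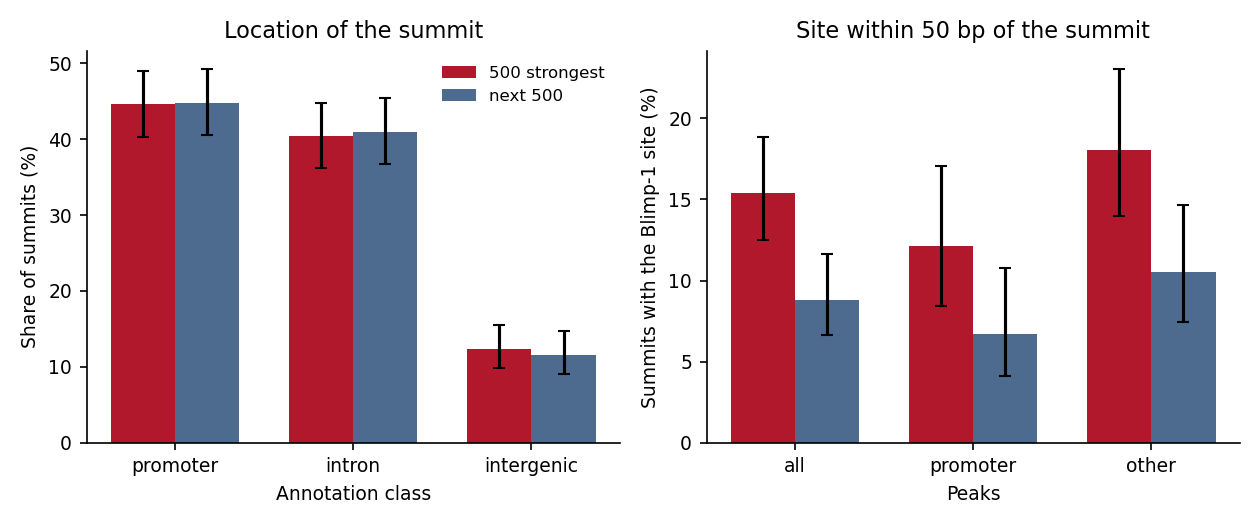
Left, share of summits in 3 annotation classes (vertical axis, percent). Right, share of summits with the Blimp-1 site within 50 bp, over all peaks, promoter peaks and other peaks. Bars stand for the 500 strongest and the next 500, and error bars are 95% Wilson intervals. The location bars are level within their intervals, and the site bars of the 500 strongest are the taller in each pair.

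The 2 words of the site were also counted apart. AGCGAAAG lay in 40 of the 500 strongest windows (8%), against 12 of the next 500 (2.40%), an odds ratio of 3.54 (Fisher's exact p = 8.47e-05). AGTGAAAG lay in 41 (8.20%), against 32 (6.4%), an odds ratio of 1.31 (Fisher's exact p = 0.331). Both splits were added after the data had been seen, and the difference between the words was not tested. Over all peaks that passed the IDR threshold, AGTGAAAG lay in 4.18% of windows and AGCGAAAG in 2.22%. Both words were thus more frequent in the 500 strongest than over all peaks, a comparison that was not tested. AGCGAAAG lay in 29 of 277 windows outside promoters (10.5%), against 7 of 276 (2.54%). At promoters it lay in 11 of 223 (4.93%), against 5 of 224 (2.23%). AGTGAAAG lay in 23 of 277 windows outside promoters (8.30%), against 22 of 276 (7.97%). At promoters it lay in 18 of 223 (8.07%), against 10 of 224 (4.46%). By bands of 100 ranks from the strongest, windows with either word numbered 21, 23, 12, 12 and 9 in the 500 strongest, and 9, 8, 10, 5 and 12 in the next 500. Of the members 5 held more than 1 site, and the peak at rank 39 held 3. That peak lay at the promoter of the noncoding gene lncRNA:CR43250. It was 1422 bp upstream of the nearest coding TSS, that of Ilp8, a relaxin-like peptide gene.

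GC content differed between the 500 strongest and the next 500 as well. The median within 50 bp of the summit was 39.1% in the 500 strongest and 32.7% in the next 500, against 34.7% over all 9515 peaks. Of the 500 strongest windows 204 (40.8%) lay below that last value, against 266 (53.2%) of the next 500 (odds ratio 0.606, p = 0.000109 by Fisher's exact test). In the window 500 bp to the right the medians were 41.6% and 42.6%, and 118 against 109 windows lay below the same value (odds ratio 1.11, Fisher's exact p = 0.546). Outside promoters the medians were 40.6% and 35.6% (p = 0.000169 in the same exact test), and at promoters 33.7% and 30.7% (p = 0.0854).

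The site and the GC content moved together. Among windows at or above 35.6%, the median GC content of the 1000 windows, the site lay in 74 of 287 of the 500 strongest (25.8%), against 37 of 226 (16.4%), an odds ratio of 1.77 (Fisher's exact p = 0.0128). Below that value it lay in 3 of 213 (1.41%), against 7 of 274 (2.55%), an odds ratio of 0.545 (p = 0.524 in the same exact test). The part of base composition in the remaining difference was not tested. The 77 members with the site had a median GC content of 45.5% and a median rank of 183, and 35.1% of them lay at promoters. The 423 without it had 35.6%, a median rank of 267 and 46.3% at promoters.

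**Figure D5:**
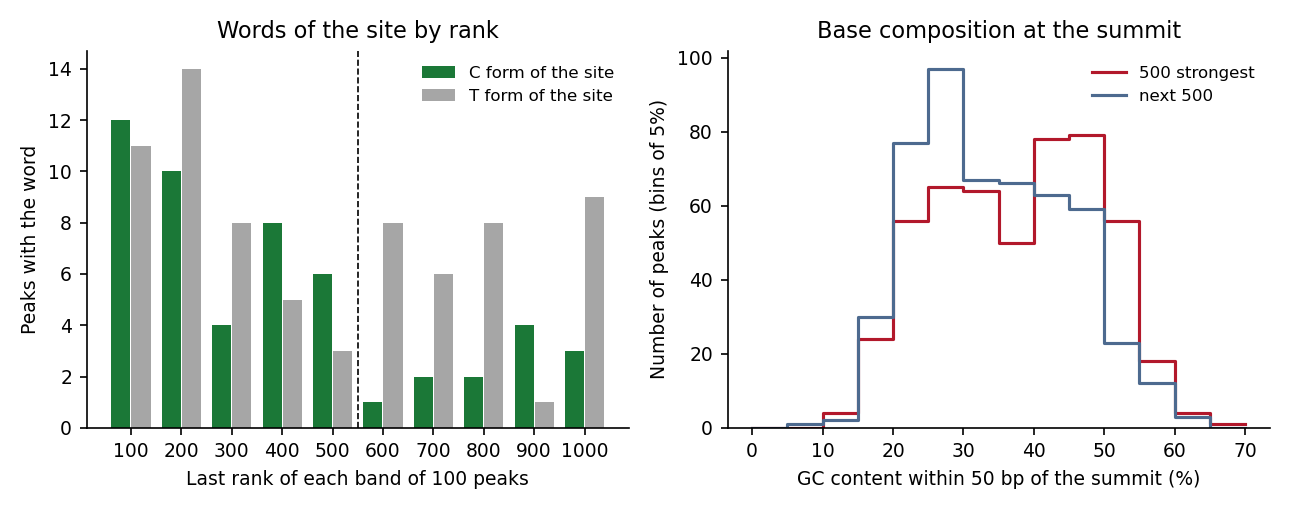
Left, number of peaks with AGCGAAAG (C form) and AGTGAAAG (T form) in each band of 100 ranks (horizontal axis), with a dashed line between the 500 strongest and the next 500. Right, number of peaks by GC content within 50 bp of the summit in bins of 5% for both sets. The C form ranges from 4 to 12 per band in the 500 strongest and from 1 to 4 in the next 500, and more of the 500 strongest have a GC content above 40%.

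The replicates differed in GC content and promoter share. The median GC content of each replicate's own first 500 peaks was 41.6%, 38.6% and 34.7% in replicates 1, 2 and 3, and their promoter share was 41.0%, 45.2% and 48.6%. Of the members, 232 ranked higher in replicate 1 than in replicate 3, with a median GC content of 45.5%, 78 (33.6%) at promoters and 58 (25%) with the site. The 262 members that ranked higher in replicate 3 than in replicate 1 had a median GC content of 29.7%, 142 (54.2%) at promoters and 18 (6.87%) with the site. The part of this spread between replicates in the results above was not tested. Within each replicate's ranking the site was the more frequent in ranks 1 to 500, as given above. Those first 500 held 444, 463 and 445 of the members in replicates 1, 2 and 3, so they are not an independent check. Their GC content was also the higher. In the next 500 peaks of each replicate the median was 35.6%, 32.7% and 30.7% in the same order.

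Of the 18 patterns searched on both strands, 1 (5.56%) differed between the 500 strongest and the next 500 after adjustment over the 18. It was the Blimp-1 site, with adjusted p = 0.0328 in Fisher's exact test. With only the strongest peak per 10 kb, 0 of the 18 passed after adjustment, and the site alone had an odds ratio of 1.90 (62 of 426 windows, against 31 of 377, unadjusted p = 0.00562 in the same exact test). GAAAGTGA (odds ratio 1.70) and the repeated GAAAGT form (1.82) shared bases with it and had adjusted p = 0.0532 each in the same exact test. The GAGA factor word GAGAGAG lay in 20 windows, against 8, and the homeodomain core TTAATTA in 17, against 32, each with adjusted p = 0.141 in the same exact test. The other 13 patterns were TATCGATA (DREF), GGTCACAC (M1BP), AACCGGTT or AACAGGTT (Grainy head), CAGGTAG (Zelda), NACGTG (Trachealess and Tango), CAGCTG (E-box), TGANTCA (AP-1), AGATAA (factors of the GATA family), CAAGGTCA (Ftz-F1), AGGTCA (nuclear receptor core), TTCNNNGAA (STAT92E), CACACACA (CA repeat) and ATGCAAAT (POU). Each had an adjusted p of 0.310 or more. That core lay in 17 windows, against 8, and includes the last bases of the Ftz-F1 word.

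Of all words of 6 bases, each counted with its reverse complement, 3 (0.144%) were more frequent in the 500 strongest and 0 were less frequent after adjustment over all words. Of the words called, 0 were called when peaks were ranked without replicate 2 or in the 250 strongest against the next 250. Without replicate 1 the test called 1 word, which was none of the 3, and without replicate 3 it called 7, of which 2 were among the 3. Those 7 were 4 more frequent and 3 less frequent. The 1000 strongest against the next 1000 gave 2 words, both more frequent, and 0 of them were among the 3. Without adjustment, 85 were more frequent and 74 less frequent by Fisher's exact test at 0.05. AAAGCG lay in 78 windows, against 32 (odds ratio 2.70, with adjusted p = 0.00856 by Fisher's exact test). CGAAAG lay in 110, against 59 (odds ratio 2.11, adjusted p = 0.0228 in the same exact test). CGAGAG lay in 40, against 11 (odds ratio 3.87, adjusted p = 0.0255 in the same exact test). CGAAAG is the end of AGCGAAAG, and 40 of the 110 windows held that whole word, against 12 of 59. Of the AAAGCG windows 31 of 78 held AGCGAAAG, against 6 of 32. Of the CGAGAG windows only 8 of 40 held the Blimp-1 site, against 3 of 11. The next words in order were GCGAAA (80 windows, against 40) and AAGCGA (81, against 42), with adjusted p = 0.0684 and 0.0958 in the same exact test. The 5 words with the lowest p among those less frequent in the 500 strongest had adjusted p between 0.102 and 0.109 in the same exact test. AATTGT lay in 32 windows, against 66. AGGATA lay in 1 window, against 15. ATATAA lay in 58 windows, against 99. ATCATA was in 21, against 50, and the word AATGGT in 11, against 34.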

How the data were processed

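The alignments used dm6, and 1 control alignment served all replicates, per the deposited notes. The sources used here name no aligner, peak caller or IDR threshold. Each peak in the authors' deposited lists has a signal value, used only to rank peaks within a list, and a −log10 q-value, which reached the same highest value in all 9515 IDR-thresholded peaks and was not used. The authors deposited 30000 peaks per replicate. Every IDR-thresholded peak is also in the list called on the 3 replicates together. Peak lists hold no read counts, so depth is unknown.

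From these lists, peaks were ranked by signal and summits were matched to each replicate within 100 bp. Sequence came from the RefSeq copy of Release 6 (dm6) and gene models from Ensembl release 115, without pseudogenes or transposable elements. Coordinates are 1-based. Summits within 500 bp of a TSS were classed as promoter, and the others by the first that applied of 5′ UTR, coding exon, 3′ UTR, any other exon, intron and intergenic. Words were sought on both strands in 101 bp around the summit. Two-sided Fisher's exact tests compared the 500 strongest with the next 500, with Benjamini-Hochberg adjustment over 7 classes, 18 patterns or all words of 6 bases; the exact McNemar test compared summit with flank (Python 3.11.15, scipy 1.17.1). The word comparison was tested on simulated windows that had the same expected GC content in both sets. The part of the real GC difference between the sets in the words called was not tested. The unit of these tests is the peak, and p-values do not measure the spread between replicates.

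The members, the 27 gene lists, the patterns and the words were chosen with earlier results of these data known, among them that stronger peaks held the site more often. Renamed symbols were followed, and 4 further groups added, after the peak lists had been read; 583 of 586 entries matched. No list was tested. Genes named are those nearest to the 20 strongest peaks, to the 5 peaks on each side of the boundary, to the 5 members with the largest spread between replicates, those nearest to 4 or more members, up to 3 per list, Blimp-1 and ftz-f1; others were chosen after their values were seen. Alternatives are given at the end. One item that the rule selects is not reported here.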

Additional observations from a re-analysis of the deposited data

How the results depend on the processing

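No paired analysis was possible because all samples belong to 1 group. The odds ratio of the site ran from 1.89 to 2.08 when 1 replicate was left out and peaks were ranked by their mean rank in the others. It changed direction below the median GC content (0.545) and lost the call for AGTGAAAG alone (1.31), both chosen after seeing the data. At promoters it passed with a window of 25 bp (2.37), promoters of 1000 bp (2.72), the 250 strongest against the next 250 (3.16), and 1000 against 1000 (2.61), and ran from 1.88 to 2.11 with 1 replicate left out. At other summits it missed the threshold with promoters of 1000 bp (1.36) and in 250 against 250 (1.86).

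Promoter odds ratios changed direction at 250 bp (1.20), at 1000 bp (1.12), in 250 against 250 (1.05) and in 1000 against 1000 (1.40, adjusted Fisher's exact p = 0.00188), and ran from 0.960 to 1.06 without 1 replicate. Intron odds ratios did with 1 peak per 10 kb (1.07), and ran from 0.912 to 1.08. Intergenic ones did at 250 bp (0.930), at 1000 bp (0.977) and in 1000 against 1000 (0.705, adjusted Fisher's exact p = 0.0292), and ran from 0.895 to 1.00. Patterns called numbered 2 in 250 against 250, 3 in 1000 against 1000, 0 with 1 peak per 10 kb and 2 to 3 without 1 replicate. Words of 6 bases called numbered 0 in 250 against 250 and 0 to 7 without 1 replicate, with 0 called without replicate 2 and 1 without replicate 1; of the 7 without replicate 3, 2 were among the 3 of the report, as were 0 of the 2 in 1000 against 1000. The GC odds ratio missed the threshold at promoters (0.713) and was 1.11 in the flank. Members matched in all replicates were 96.6% within 50 bp, 100% within 200 bp, 100% of the 250 strongest and 99.1% of the 1000 strongest. Coding genes with a member within 5 kb numbered 819, and ecdysone response genes 10, or 11 by nearest TSS. The cause of these changes was not tested.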
